A study of Rattus norvegicus with 4 samples.

Results

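The genes described here are 9 rat genes whose proteins bind calcium through EF-hand motifs: the buffers Calb1 (calbindin) and Calb2 (calretinin), the potassium channel-interacting proteins Kcnip1, Kcnip2, Kcnip3 and Kcnip4, and the neuronal calcium sensors Hpcal1, Ncald and Ncs1. They carry 20 probe sets with a single gene symbol, out of 31042 non-control probe sets and 14217 named genes on the array. Calb1 and Kcnip4 were selected on their measured differences between the genotypes in these same arrays, and the other genes were added as their relatives. All genotype differences of these 9 genes are therefore given as a description, with an error but with no test.

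The study hybridised 4 one-colour Affymetrix arrays with RNA from the telencephalon, the front of the embryonic forebrain, of Sprague-Dawley rat embryos at E11.5. In the wild-type group there were 2 arrays, and in the group homozygous for the Pax6 mutation rSey2 (rSey2/rSey2) there were 2. Pax6 is a paired-box transcription factor of forebrain progenitors, and the mutation was present in all cells of the embryo, not driven by a Cre or transgene. The design text gives 13 telencephalons per experiment, so every array stands for pooled embryos, and the arrays of 1 genotype carry the label biological replicate, with no litter named. It is not stated whether each array had a pool of its own. Errors therefore measure the spread between these arrays, which may be technical. In such tissue fewer cells of a type and less RNA per cell cannot be told apart.

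An EF-hand is a helix-loop-helix whose loop holds a calcium ion. Buffers such as calbindin and calretinin limit how far calcium spreads in a cell and are widely used as labels of neuron classes. Neuronal calcium sensors change shape when calcium binds and pass the signal to a partner; the Kcnip proteins do so as subunits of Kv4 potassium channels, which carry the fast A-type current.

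Values are the authors' GCRMA values on the log2 scale, on which a step of 1 is a doubling and the lowest value present is 2.07. A probe set with a 4-array mean below 3.21, the 40th percentile, is called dim here; it was not tested, and no level or difference is read from it with confidence. Array medians over the 18625 tested probe sets ran from 8.22 to 8.35. Arrays have no read depth, and their number limits the precision. Of 9 markers of the telencephalon and its progenitors read by a probe set with a single symbol, 8 were tested (Lhx2, Emx2, Six3, Sox2, Nes, Vim, Pax6 and Nkx2-1), and Emx1 was dim. Pax6 differed by -0.09, with overlapping groups, so this transcript gives no check on the genotypes.

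Of the 20 probe sets, 9 were tested and 11 were dim. The tested ones covered 5 genes, Calb1, Kcnip4, Hpcal1, Ncald and Ncs1, and every probe set of Calb2, Kcnip1, Kcnip2 and Kcnip3 was dim. Among the 9 tested probe sets 5 were lower and 4 higher in the mutant, with a median difference of -0.07, against a median of 0 over all tested probe sets. Calb1 was lower in the mutant, with a log2 gap of 1 or more in each of the 4 mutant and wild-type pairings, which held for 0.156% of all tested probe sets. Kcnip4 was higher by that much, which held for 0.0161%. These percentages are printed as background, since this contrast chose both genes. In limma 0% of the 18625 tested probe sets reached an adjusted p of 0.05, and 680 had an unadjusted p under 0.05; no p is given for the 9 genes.

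**Figure D1:**
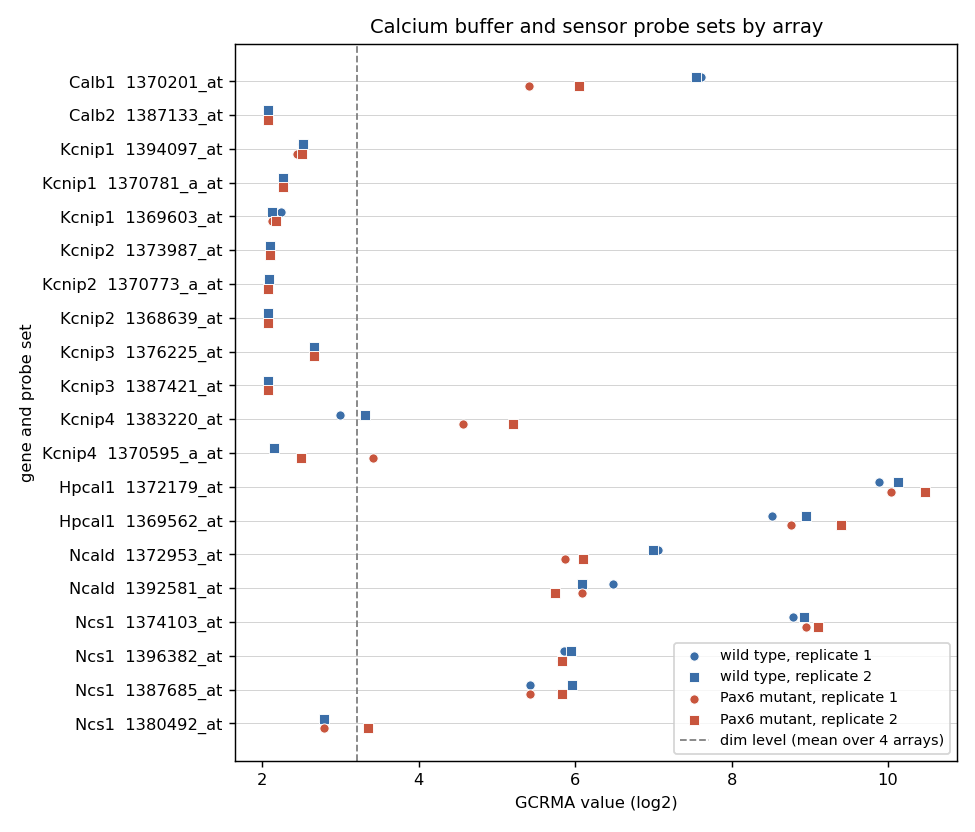
GCRMA values (log2, horizontal axis) of all 20 probe sets of the 9 genes, 1 row per probe set, with circles for replicate 1, squares for replicate 2, blue for wild type and red for the mutant; hidden points lie under others at the same value. Calb1 runs from 7.54 to 7.61 in wild type and from 5.41 to 6.05 in the mutant, and the rows of Calb2 and Kcnip1 to Kcnip3 stay left of the dashed line at 3.21.

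Calb1 encodes calbindin, a cytoplasmic buffer with several EF-hands that marks classes of neurons in the adult brain. Its 1 probe set (1370201_at) read 7.61 and 7.54 on the wild-type arrays and 5.41 and 6.05 on the mutant arrays. Both mutant arrays lay below both wild-type arrays, and the smallest gap in any pairing was 1.49. The wild-type mean was 7.58 ± 0.05 and the mutant mean 5.73 ± 0.45 (SD, n = 2 each), which gave a difference of -1.85 (SE 0.26, 95% interval from -2.64 to -1.05) or a 3.60-fold lower level. The 2 mutant arrays differed by 0.64, while the wild-type arrays differed by -0.07 (replicate 2 minus replicate 1). The mutant arrays thus lay farther apart than the wild-type arrays, though a spread from 2 arrays is itself uncertain. The mutant level remained above the dim level.

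Calb2 encodes calretinin, the close relative of calbindin that labels early-born cortical neurons such as Cajal-Retzius cells. Its 1 probe set (1387133_at) read 2.07 on all 4 arrays, the lowest value of the table. No difference can be measured there, so the data give no contrast between calretinin and calbindin.

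Kcnip4 encodes a Kv4 channel subunit that is known for forms able to slow down or suppress the fast inactivation of the A-type current. The brighter of its 2 probe sets (1383220_at) read 2.999 and 3.32 in wild type and 4.56 and 5.20 in the mutant. Both mutant arrays lay above both wild-type arrays, with a smallest gap of 1.25. The wild-type mean was 3.16 ± 0.22 and the mutant mean 4.88 ± 0.45 (SD, n = 2 each), a difference of 1.73 (SE 0.29, 95% interval from 0.85 to 2.61) or 3.31-fold. The wild-type mean lay under the dim level, so this probe set was tested only because of its mutant arrays. With a pseudocount of 16 added on the linear scale the difference was 0.88, so the fold rests on how low values are treated.

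The other Kcnip4 probe set (1370595_a_at, a suffix that Affymetrix uses for probes shared by several transcripts of a gene) was dim. It read 2.15 on both wild-type arrays and 3.41 and 2.49 on the mutant arrays. It was thus also higher on both mutant arrays, by 0.80 in the mean, with the groups not overlapping. Replicate 1 was the higher mutant array on this probe set and replicate 2 on the brighter one, so the order of the mutant arrays was not shared.

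The other Kcnip genes gave no usable level. Kcnip1, a Kv4 subunit of many inhibitory neurons, had 3 dim probe sets with values from 2.13 to 2.51. Kcnip2, the main Kv4 partner in heart muscle, had 3 dim probe sets with values from 2.07 to 2.10. Kcnip3, also known as a calcium-dependent repressor of transcription (DREAM) and as calsenilin, had 2 dim probe sets with values from 2.07 to 2.66. Of the 11 dim probe sets of all 9 genes, 6 had the same value on all 4 arrays. Outside Kcnip4 and Ncs1, no dim probe set varied by more than 0.11 between any pair of arrays.

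Ncald encodes neurocalcin delta, a myristoylated sensor that moves to membranes when calcium binds. Its brighter probe set (1372953_at) read 7.06 and 6.99 in wild type and 5.87 and 6.10 in the mutant. Both mutant arrays lay below both wild-type arrays. The wild-type mean was 7.02 ± 0.05 and the mutant mean 5.98 ± 0.16 (SD, n = 2 each), a difference of -1.04 (SE 0.11, 95% interval from -1.39 to -0.69) or a 2.06-fold lower level. The spread between arrays of a genotype was smaller than for Calb1, with a pooled SD of 0.12 against 0.32. The smallest gap in any pairing was 0.89, just short of the limit of 1 that Calb1 and Kcnip4 met.

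The second Ncald probe set (1392581_at) read 6.49 and 6.09 in wild type and 6.09 and 5.75 in the mutant. The groups touched, since wild-type replicate 2 and mutant replicate 1 lay at the same level. The difference was -0.37 (SE 0.22, 95% interval from -1.03 to 0.29), in the direction of the brighter probe set but smaller. Leaving out wild-type replicate 1 gave -0.17 and leaving out mutant replicate 2 gave -0.20, while leaving out wild-type replicate 2 gave -0.57 and leaving out mutant replicate 1 gave -0.54. Each of these was smaller in size than any value of the brighter probe set with 1 array left out (-1.15 to -0.93). The difference between the probe sets was not tested, and the files do not say which transcripts each one reads.

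Hpcal1 encodes a visinin-like sensor related to hippocalcin, and it was well above the dim level in both genotypes. Its brighter probe set (1372179_at) read 9.88 and 10.13 in wild type and 10.03 and 10.47 in the mutant. The second (1369562_at) read 8.51 and 8.94 in wild type and 8.76 and 9.40 in the mutant. The groups overlapped on both probe sets, because replicate 2 was the higher array in each genotype. The differences were 0.24 (SE 0.21, 95% interval from -0.39 to 0.87) and 0.35 (SE 0.31, 95% interval from -0.59 to 1.30). Without mutant replicate 2 both were 0.03, and without wild-type replicate 1 they were 0.12 and 0.13. With mutant replicate 1 left out they reached 0.46 and 0.67. A difference of Hpcal1 between the genotypes was not resolved in this fit; the upper bounds still allow an increase of the size of a doubling on the second probe set.

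Ncs1 encodes neuronal calcium sensor 1 (frequenin), a regulator of transmitter release that also binds a phosphatidylinositol 4-kinase and Kv4 channels. Its brightest probe set (1374103_at) read 8.78 and 8.93 in wild type and 8.94 and 9.10 in the mutant. The difference between the genotype means was 0.17 (SE 0.11, 95% interval from -0.16 to 0.49). The mutant arrays lay above the wild-type arrays, by as little as 0.02 in the closest pairing. A dimmer probe set (1396382_at) read 5.85 and 5.95 in wild type and 5.82 and 5.83 in the mutant, a genotype difference of -0.08 (SE 0.08). The third tested probe set (1387685_at) read 5.42 and 5.96 in wild type and 5.42 and 5.83 in the mutant, a genotype difference of -0.07 (SE 0.28). Its sign turned with 1 array left out, over a range from -0.34 to 0.20. The last (1380492_at) was dim, at 2.79 on 3 arrays and 3.35 on mutant replicate 2. The Ncs1 probe sets therefore did not share a direction.

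**Figure D2:**
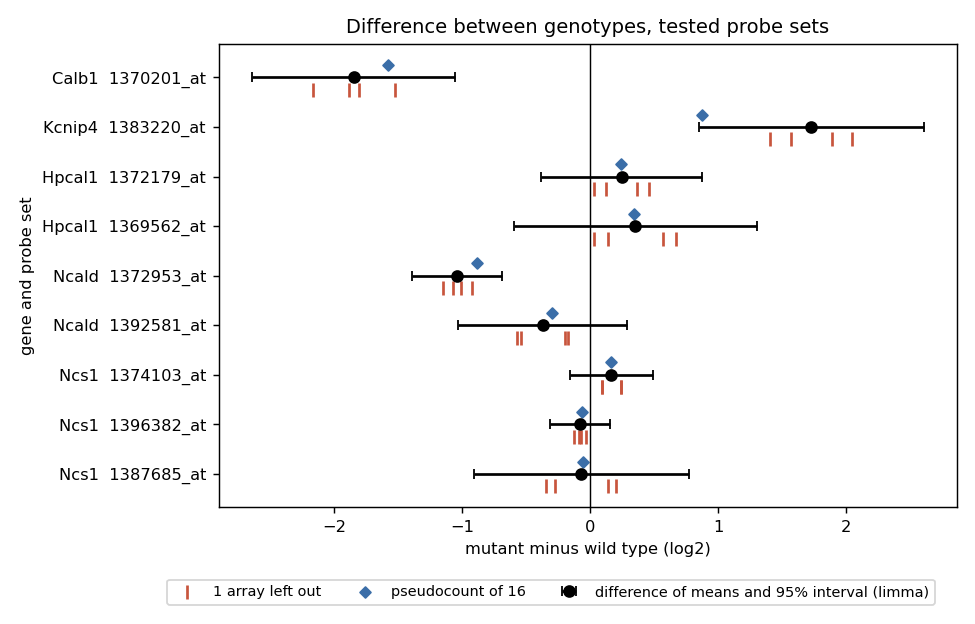
Difference of the genotype means (mutant minus wild type, log2, horizontal axis) of the 9 tested probe sets, with the 95% interval of the limma fit in black, the values with 1 array left out as red ticks and the value with a pseudocount of 16 as a blue diamond. Calb1 (-1.85), Kcnip4 (1.73) and the brighter Ncald probe set (-1.04) lie farthest from 0; the intervals show the error of each difference and are no test, since Calb1 and Kcnip4 were selected on this contrast.

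By the weaker criterion that the arrays of the genotypes do not overlap, 3 of the 9 tested probe sets were lower in the mutant (Calb1, Ncald 1372953_at and Ncs1 1396382_at), where 11.8% of all tested probe sets were. For 2 of the 9 (Kcnip4 and Ncs1 1374103_at) the mutant was higher, where 11.4% of all were. Calb1 and Kcnip4 were selected on this contrast, and Ncs1 is counted in both directions. The counts therefore cannot be read as an excess over these percentages. Both Ncs1 probe sets meet the criterion with differences under 0.2, so not overlapping says little about size with 2 arrays a group. The pooled SD between arrays of a genotype was 0.36 for Kcnip4, 0.32 for Calb1 and 0.39 for Hpcal1 (1369562_at), against a median of 0.16 over all tested probe sets. For the brightest Ncs1 probe set it was 0.11.

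**Figure D3:**
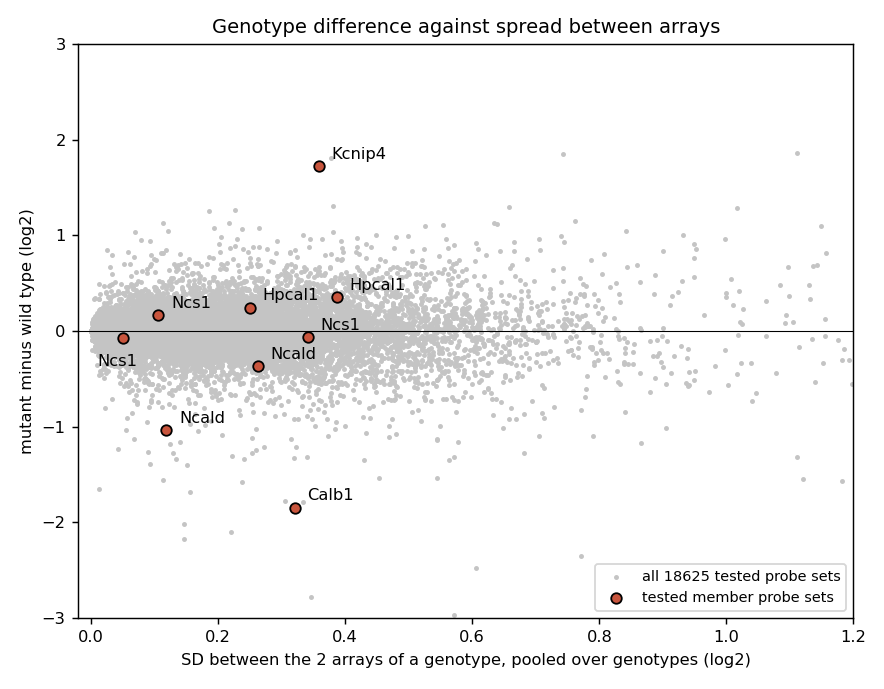
Difference between genotypes (mutant minus wild type, log2, vertical axis) against the SD between arrays of a genotype (pooled over genotypes, log2, horizontal axis), with grey points for the 18625 tested probe sets and red points for the 9 of these genes; 25 grey points lie outside the axes. Calb1 (SD 0.32) and Kcnip4 (SD 0.36) lie far from 0 at a spread above the median of 0.16, while the lower Ncald point has a spread of 0.12.

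Sequence upstream of the genes was taken from RefSeq (build GRCr8), where 5 of the 9 symbols had an entry: Hpcal1, Kcnip1, Kcnip2, Kcnip3 and Ncs1. Those of Ncs1 and Hpcal1, whose brightest probe sets read well above the dim level on every array, and of Kcnip3, whose probe sets were dim, are shown to set sensors with a clear signal beside one without. Each is the 250 bases before the annotated start, 5′ to 3′ on the gene's strand, with CG dinucleotides in capitals.
Ncs1, chr3:34920699-34920948, plus strand: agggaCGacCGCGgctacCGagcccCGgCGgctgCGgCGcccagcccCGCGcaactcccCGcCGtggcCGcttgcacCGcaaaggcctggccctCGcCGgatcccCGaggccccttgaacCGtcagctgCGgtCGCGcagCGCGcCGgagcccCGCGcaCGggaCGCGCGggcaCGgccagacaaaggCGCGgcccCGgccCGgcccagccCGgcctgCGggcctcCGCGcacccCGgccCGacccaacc
Hpcal1, chr6:46206644-46206893, plus strand: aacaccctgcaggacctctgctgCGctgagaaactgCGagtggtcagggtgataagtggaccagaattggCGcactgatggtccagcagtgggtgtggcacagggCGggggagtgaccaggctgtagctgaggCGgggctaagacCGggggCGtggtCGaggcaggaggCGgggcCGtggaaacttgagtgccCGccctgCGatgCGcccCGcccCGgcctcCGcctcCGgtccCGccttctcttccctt
Kcnip3, chr3:135195411-135195660, minus strand: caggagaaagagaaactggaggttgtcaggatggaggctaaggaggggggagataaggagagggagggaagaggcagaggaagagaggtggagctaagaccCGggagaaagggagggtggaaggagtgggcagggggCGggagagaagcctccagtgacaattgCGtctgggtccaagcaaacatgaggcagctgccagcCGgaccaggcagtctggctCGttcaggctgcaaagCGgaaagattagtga

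The Ncs1 window held 41 CG dinucleotides, as many as or more than 99.2% of the 33469 windows of this length in the table. The Hpcal1 window held 18 (81.6%) and the Kcnip3 window 6 (54.8%), against a median of 5. The Kcnip2 window held 12 (70.6%), and the windows of the alternative Kcnip1 starts held 7 (58.4%) and 13 (72.4%). Kcnip1 and Kcnip2 were dim too, so the printed Kcnip3 window is the poorest in CG among those of dim genes. A link between CG number and array level was not tested. CG-rich promoters are known to be typical of broadly active genes. The letters TAAT, the core bound by many homeodomain proteins, were searched on both strands, where TAAT on the minus strand reads ATTA. They occurred in 1 of the 6 windows, that of Kcnip3, against 57.0% of all windows. The 6 windows held from 58.4% to 80.8% G and C, and the other windows were not matched for this. The shares therefore do not show a lack of TAAT in these genes. A match is a description of letters, and no match says nothing of a factor.

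The genes whose array profile was most like that of Calb1 were sought among all named tested probe sets by the root-mean-square distance over the 4 arrays, after each profile was centred on its own mean. The nearest were Rcsd1 (distance 0.14), Ralyl (0.15), Fez1 (0.24), Sapcd1 (0.31) and Tnnt2 (0.32). Tnnt2, cardiac troponin T, read 7.21 and 6.58 in wild type and 5.25 and 5.83 in the mutant. For Kcnip4 the nearest were Abcg5 (0.26), Dguok (0.35), Thbs4 (0.36), Npas3 (0.38) and Efna1 (0.38). The sterol transporter gene Abcg5 read 5.49 and 6.15 in wild type and 6.94 and 7.31 in the mutant. Ncald 1372953_at was added to this search after its values were seen. Its nearest were LOC102547113 (0.05), Ppp1r1a (0.06), Ctnnd2 (0.08), Parm1 (0.10) and Mgarp (0.11). These distances are smaller, but profiles were not scaled, so they also depend on the smaller genotype difference of this probe set. Ctnnd2, which encodes delta-catenin, read 7.13 and 7.18 in wild type and 5.85 and 6.10 in the mutant. With 4 arrays such distances are descriptions only.

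The wider set of EF-hand genes was taken as a list of 56, of which 46 had a probe set with a single symbol and 25 were tested. Of these 15 were lower and 10 higher in the mutant, with a median of -0.06, against a median of 0 over 9840 genes. In limma 0 of the 25 passed over all probe sets (adjusted p = 1 for each), and 1 had an unadjusted p under 0.05. Necab2, a neuronal calcium-binding protein, read 8.64 and 8.79 in wild type and 7.86 and 7.98 in the mutant. That difference of -0.80 (SE 0.10, limma adjusted p = 1) was the largest of the list among genes whose groups do not overlap. The other Necab2 probe set was dim, with a mean of 2.28 in wild type and 2.09 in the mutant. S100a11 differed by -0.39 (SE 0.18), but by -0.22 with wild-type replicate 1 left out and -0.25 with mutant replicate 1 left out. Sorcin, encoded by Sri, differed by 0.26 (SE 0.12), or 0.14 with mutant replicate 2 left out, and by 0.21 on its other probe set. Calmodulin, the general calcium sensor of cells, was read through Calm2, with a wild-type mean of 14.77 ± 0.01 and a mutant mean of 14.69 ± 0.11 (SD, n = 2 each). The buffer parvalbumin (Pvalb), hippocalcin (Hpca) and S100b lay at 2.07 on all 4 arrays, and visinin-like 1 (Vsnl1) and recoverin (Rcvrn) were dim.

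The channels that Kcnip proteins serve were not measurable. Kcnd1, Kcnd2 and Kcnd3, which encode the Kv4 pore subunits, were dim, with Kcnd1 at 2.19 on every array. Of the 12 genes of the A-type channel list on the array, 2 were tested, and both were higher in the mutant. Kcne3, an accessory subunit of voltage-gated potassium channels, read 7.35 and 7.26 in wild type and 8.11 and 7.82 in the mutant. The genotype difference was 0.66 (SE 0.14). The other Kcne3 probe set was dim, at 2.17 on all 4 arrays. Dpp6, a transmembrane partner of Kv4 channels, differed by 0.54 (SE 0.25). Its difference was 0.25 with the pseudocount, and 0.27 when wild-type replicate 1 was left out. The Dpp6 wild-type mean was 3.56, near the dim level. The other Dpp6 probe set was dim, with a mean of 3.18 in each genotype. In limma 0 of these 2 passed (adjusted p = 1), and 1 had an unadjusted p under 0.05.

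Genes of calcium entry, stores and pumps had 13 of 37 tested, 9 higher and 4 lower, with a median of 0.22. In limma 0 passed, with 2 at an unadjusted p under 0.05. The median was -0.02 when either wild-type replicate 1 or mutant replicate 2 was left out and 0.43 with mutant replicate 1 left out, so the list had no stable direction. Ryr3, a calcium release channel of intracellular stores, read 3.12 and 4.57 in wild type and 5.54 and 5.84 in the mutant. Its difference of 1.84 (SE 0.59, limma adjusted p = 1) was 1.11 with the pseudocount, and it ran from 1.12 to 2.57 depending on which wild-type array was left out (replicate 1 and replicate 2, respectively). Mcu, the pore of the mitochondrial calcium uniporter, and Slc8a1, a sodium-calcium exchanger, each differed by 0.33 (SE 0.14 and 0.11). The Mcu value was 0.18 without mutant replicate 2, and its other tested probe set differed by 0.11. A further Mcu probe set was dim, at 2.07 on all 4 arrays. The other Slc8a1 probe set was dim, with a difference of 0.01.

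Effectors of calcium and calmodulin had 19 of 22 tested, 10 higher and 9 lower, with a median of 0.05. In limma 0 passed, with 2 at an unadjusted p under 0.05. The kinase gene Camk1g differed by 0.44 (SE 0.12) on its brighter probe set and by 0.08 on the other. Psen2, a presenilin and known binding partner of Kcnip3, differed by -0.31 (SE 0.09), and the receptor kinase gene Grk2 by 0.26 (SE 0.16). The Grk2 value fell to 0.09 without wild-type replicate 1, was 0.17 without mutant replicate 2, and reached 0.43 without wild-type replicate 2. The groups did not overlap in 8 of the 19 genes, or 42.1%, where 24.3% of all 9840 genes did so. This was not particular to effectors. The share was 36% for the other EF-hand genes and 38.5% for calcium entry, stores and pumps, and both tested A-type genes were without overlap. In the cell type marker lists below with at least 5 tested genes it ran from 20% (Cajal-Retzius and preplate) to 66.7% (erythroid).

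**Figure D4:**
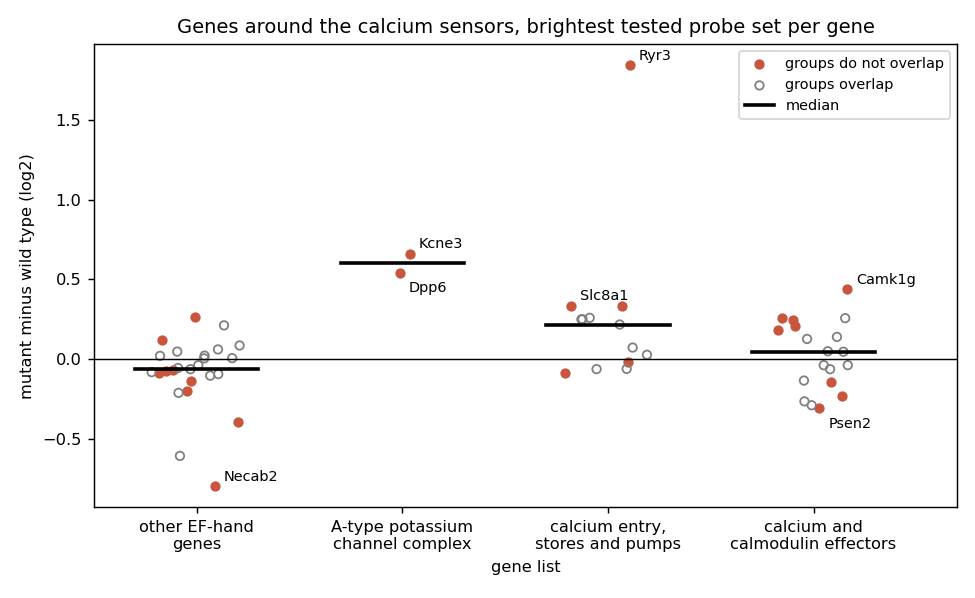
Difference between genotypes (mutant minus wild type, log2, vertical axis) of each tested gene in 4 lists of calcium-related genes (horizontal axis), by its brightest tested probe set; filled points mark genes whose groups do not overlap and bars the medians. Necab2 at -0.80 and Ryr3 at 1.84 lie farthest from 0, and the medians are -0.06, 0.60, 0.22 and 0.05 from left to right.

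Calbindin and calretinin are used as neuron markers, so markers of cell types are given beside them. Of 14 genes of postmitotic neurons 11 were tested, 5 lower and 5 higher, with a median of 0; their summed linear level ran from 3236 to 3656 in wild type and from 3377 to 3722 in the mutant, and Snap25 lay at 2.07 on all arrays. Of 10 Cajal-Retzius and preplate genes 7 were on the array and 5 tested, 3 higher and 2 lower, with Tbr1 at 2.07 on all arrays. Their summed level ran from 2075 to 2340 in wild type and from 2085 to 2559 in the mutant. Both sums overlapped between the genotypes, while single neuron genes lay on either side, with Scg3 at -0.73, Nefm at -0.41, Map2 at 0.36 and Dcx at 0.51. The brightest neuron genes, Map2 and Nefm (wild-type means 10.17 and 10.07), weigh most in the neuron sum and moved in opposite directions without overlap. In the other sum Cxcr4 weighs most, with a wild-type mean of 10.15. The overlapping sums therefore do not show that neuron number was unchanged. The part of neuron number in the differences of Calb1 and Kcnip4 was not tested.

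Summed markers of several tissues differed between the genotypes without overlap. A sum on the linear scale follows the brightest genes of its list, so it does not show a shift of a whole tissue. In the wild-type mean Hbe1 and Hbz read 15.19 and 14.80, and the next erythroid gene, Ahsp, read 9.94. Col3a1 read 12.34, and the next head mesenchyme gene, Col1a2, read 10.16. Telencephalon markers were higher in the mutant in 6 of 8 tested cases (median 0.13), with summed levels from 45030 to 45788 in wild type and from 49479 to 50472 in the mutant. All 9 tested erythroid genes were higher in the mutant (median 0.33), with summed levels from 67501 to 68275 in wild type and from 78123 to 78500 in the mutant. All 9 tested endothelial genes were higher (median 0.18), with sums from 3432 to 3437 and from 3783 to 4370. Head mesenchyme genes were lower in 5 of 8 cases (sums from 7559 to 7756 and from 5992 to 7363), and genes of surface ectoderm and placodes in 4 of 7 (sums from 642 to 700.1 and from 538 to 631). Of 6 eye genes on the array 3 were tested, 2 of them higher (sums from 923 to 1135 and from 1359 to 1470). Of the 8 diencephalon, midbrain and hindbrain genes on the array 1 was tested, and it was lower (sums from 2658 to 2932 and from 2343 to 2397). Their part in the differences of Calb1, Kcnip4 and Ncald was not tested.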

How the data were processed

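RNA of pooled E11.5 rat telencephalon was hybridised to 4 arrays, 2 per genotype, after biotin labelling of cRNA from 10 µg of total RNA, per the labels' protocols. The deposited table holds GCRMA values on the log2 scale, 1 per probe set and array; the authors ran GCRMA according to the submitters' processing notes (background correction, normalization between arrays and summary); the version is not given in the sources used here. That the scale is log2 was inferred from the range, 2.07 to 16.13. Control probe sets (57) were left out, and genes were named only from the 20826 of 31042 probe sets with 1 symbol in the platform annotation. Probe sets with a mean under the 40th percentile (12417) were left out as dim. limma 3.58.1 in R 4.3.3 fitted genotype to the remaining 18625 (lmFit, eBayes), with Benjamini-Hochberg adjustment over all of them; intervals use the moderated SE. Values were not normalized again. An exact permutation test of 2 against 2 arrays cannot reach 0.05 and was not run. Lists use each gene's brightest tested probe set; their named genes are up to 3 with the largest difference and no overlap between groups. Marker sums add 2 to the power of the value over each gene's brightest probe set, dim genes included. On simulated data with independent noise on each array, only the size of the estimated difference was checked, not the number of probe sets called. Alternatives covered the filter, a pseudocount of 16, quantile normalization, median centring, zero-variance probe sets, the replicate number and each array left out. Members and lists were chosen with earlier results of these data known. Positions on the array's own genome build are not given.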

Additional observations from a re-analysis of the deposited data

How the results depend on the processing

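Calb1, Kcnip4 and both Ncald probe sets kept their direction under every alternative run on them. Where groups do not overlap, as for Calb1, Kcnip4 and Ncald 1372953_at, leaving out 1 array or adding the pseudocount cannot turn the sign. For these the kept direction is no added support. With 1 array left out, Calb1 ran from -2.17 to -1.53, Kcnip4 from 1.40 to 2.05 and Ncald 1372953_at from -1.15 to -0.93; the pseudocount of 16 gave -1.58, 0.88 and -0.88. The number of these genes' probe sets at least 1 apart in every pairing was 2, and 1 with the pseudocount. It was 0 with the stricter filter (mean under the 60th percentile, 7.03, left out), which removes Calb1, Kcnip4 and both Ncald probe sets. With 1 array left out the number ran from 2 to 3. Against 0 probe sets past the threshold in all, 1 passed with the stricter filter, 2 after quantile normalization, 2 after centring arrays on their medians and 2 when probe sets of zero variance were dropped, and 0 of these belong to these genes; with 1 array left out it was 0. Deviations of same-numbered arrays of the genotypes had a correlation of 0.43, and those of crossed arrays -0.43. With 2 arrays per genotype these values mirror each other, so the positive sign of 1 of them is no evidence of a pairing. The labels do not say that the number marks a shared litter or day. With the replicate number as a block 0 probe sets passed, with 1194 at an unadjusted p under 0.05. The block lowered the SE of the second Ncald probe set (-0.37) from 0.22 to 0.06 and those of Hpcal1 from 0.21 to 0.09 and from 0.31 to 0.09, without moving the differences. For Kcnip4 the SE went from 0.29 to 0.12. For Calb1 it changed little, from 0.26 to 0.24, and for Ncald 1372953_at it stayed at 0.11. The block also takes up residual degrees of freedom, so a lower SE does not narrow an interval in proportion. Arrays near the lowest value of 2.07 limit what can be said of Calb2, Kcnip1, Kcnip2 and Kcnip3.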
